A study of Mus musculus with 2 samples.

Results

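A set of 10 genes of triglyceride metabolism were followed in the liver of mice on a high-fat diet: 8 that build triglyceride (Gpam, Agpat2, Agpat3, Lpin1, Lpin2, Mogat1, Dgat1 and Dgat2) and 2 that break it down (Pnpla2 and Abhd5). They were taken by symbol from the 22609 gene symbols of the count tables, and all 10 were found and had enough reads to be compared. The data were 2 poly(A) RNA libraries from liver of male C57BL/6 mice, of which 1 is labelled wild type and the other Lrg1 knockout, with the gene removed in the whole body. Both groups ate a diet with 45% of calories from fat for 16 weeks, starting at 8 weeks of age. Neither the number of mice behind each library nor the hour or feeding state at which liver was taken is stated in the labels. Lrg1 encodes a secreted leucine-rich glycoprotein, and the study asked how its loss relates to liver gene expression.

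Triglyceride is built by adding fatty acyl chains one after another to a glycerol backbone. Gpam acylates glycerol phosphate, Agpat enzymes acylate the resulting lysophosphatidate, lipins remove the phosphate from phosphatidate to give diacylglycerol, and Dgat enzymes add the last chain. Mogat1 reaches diacylglycerol by another way, from monoacylglycerol. Breakdown of stored triglyceride begins with Pnpla2, the lipase also called ATGL, which Abhd5 (CGI-58) activates and the small protein G0s2 inhibits. In liver these enzymes help set how much fat is held in droplets, secreted or released for oxidation, and Lpin1 is also known as a nuclear coactivator of fatty acid oxidation genes and as a gene that follows feeding and the circadian clock.

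Reads in genes numbered 23311906 for wild type and 18738397 for the library labelled Lrg1 knockout. Levels are given in CPM, reads relative to a library size adjusted by the trimmed mean of M-values (TMM), so that 1 read was worth 0.0441 and 0.0519 CPM. With 1 library per genotype there was no spread between animals to test against. Every difference therefore compares these libraries and not the genotypes, and no p-value is given. Intervals are exact 95% intervals for counting error only, of the Poisson kind for a level and of the Clopper-Pearson kind for a ratio or share, and a difference called 2-fold is past that size without having been tested. Lrg1 itself was read 26958 times in wild type and 17572 times in the library labelled knockout. Scaled for depth these were 1190 and 911 CPM, a ratio of 0.766 (0.751 to 0.780). The counts therefore did not separate the labels by absence of the gene. Which part of the gene was deleted is not stated here. All 8 hepatocyte markers were measured, with log2 ratios (wild type as the base) from -0.54 for Cps1 to 0.66 for Tat, and Alb, the gene of serum albumin, had 79170 and 64406 CPM. Of the 8 markers, 5 were lower and 3 higher in the library labelled knockout. A different share of hepatocytes and a different amount of RNA per hepatocyte cannot be told apart in whole tissue.

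Of the 10 genes, 9 had a lower level in the library labelled Lrg1 knockout and 1, Agpat2, a higher one. A log2 ratio below 0 was found in 51.7% of the 11411 genes with at least 50 reads. Lpin1 and Mogat1 were at least 2-fold lower, as were 2.50% of measured genes, and 0 of the 10 were 2-fold higher, as were 1.70%. At 1.5-fold 5 genes were lower (Gpam, Lpin1, Lpin2, Mogat1 and Dgat2), against 6.91% of measured genes and 5.26% of the 8459 genes that had 300 reads or more, and 0 were higher, against 5.85%. With TMM scaling the exact interval of the ratio left out equality for 9 of the 10, Dgat1 being the exception. That share was not computed over all measured genes, and such intervals narrow as reads rise. In 6 further enzyme lists the interval left out equality for 17 lower and 21 higher genes of 53 measured. The median log2 ratio of the 10 genes was -0.57, beside -0.01 over all measured genes. The genes were chosen with results of these libraries known, so these counts describe them and do not set them apart.

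Lpin1 and Mogat1 stood lowest, and Lpin2 was next, so a stretch before an annotated start of each of these genes is shown (for Lpin2 the first listed of its 3 starts in the table), to let the lowest genes and the lipin paralogue be read side by side. Sequences are from RefSeq on GRCm38.p6, 5′ to 3′ on the strand of the gene, and end at the base before the start. Capitals mark matches to the motifs named after them.

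Lpin1 (chr12:16610967-16611216, GRCm38.p6, - strand): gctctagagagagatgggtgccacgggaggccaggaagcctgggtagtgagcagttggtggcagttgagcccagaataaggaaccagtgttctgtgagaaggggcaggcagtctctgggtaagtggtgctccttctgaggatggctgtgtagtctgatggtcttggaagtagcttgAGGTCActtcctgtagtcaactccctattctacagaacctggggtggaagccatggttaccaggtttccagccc

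Lpin2 (chr17:71183282-71183531, GRCm38.p6, + strand): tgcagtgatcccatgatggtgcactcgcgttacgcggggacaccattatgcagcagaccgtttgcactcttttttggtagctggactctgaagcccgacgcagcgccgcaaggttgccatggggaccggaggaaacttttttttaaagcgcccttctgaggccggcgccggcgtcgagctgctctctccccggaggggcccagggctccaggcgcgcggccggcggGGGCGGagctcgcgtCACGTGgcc

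Mogat1 (chr1:78510810-78511059, GRCm38.p6, + strand): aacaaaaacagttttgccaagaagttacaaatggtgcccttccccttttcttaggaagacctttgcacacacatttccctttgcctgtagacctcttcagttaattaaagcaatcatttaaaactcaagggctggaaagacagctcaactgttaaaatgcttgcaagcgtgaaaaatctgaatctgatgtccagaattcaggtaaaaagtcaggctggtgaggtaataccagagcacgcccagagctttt

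The set of RefSeq promoter windows used here covered 8 of the 10 genes, with 11 windows in all. Each spanned 300 bases, from 250 before to 50 after the start. Dgat1 and Dgat2 were not in this set. Motifs of 8 kinds were searched on both strands. The E-box CACGTG, to which clock and lipogenic helix-loop-helix factors bind, was in 1 of the 11 windows, the Lpin2 window shown, beginning at position -9 and in neither of the other Lpin2 windows, and in 7.15% of the 32851 windows in the table. The nuclear receptor half-site AGGTCA was in 3 windows, among them that of Lpin1 at position -74, and in 16.3% of all windows. The GC box GGGCGG was in 6 windows (35.7% of all), among them the Lpin2 window shown, at position -24. The CCAAT box was in 3 (37.4%), for Mogat1 only beyond the start and so outside the stretch printed. The FOXO element GTAAACA was in 1 window (3.65%), another start of Lpin2. The D-box TTATGTAA (0.938%), the sterol response element core TCACCCCAC (0.551%) and the cAMP response element TGACGTCA (1.79%) were in 0 of the 11. None of the 8 motifs holds another within its letters. A match describes these letters in this window and does not show binding.

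Reads of the enzymes of the first acylation were split differently among their genes in the 2 libraries. Gpam, the mitochondrial glycerol phosphate acyltransferase, had 4377 reads in the wild-type liver, 193 CPM (188 to 199), against 2207 reads in the library labelled knockout, 114 CPM (110 to 119). Its level was 40.8% lower in the latter, a log2 ratio of -0.76 (-0.83 to -0.68). Gpat4, listed under its older symbol Agpat6 and acting at the endoplasmic reticulum on the same substrate, stood the other way, with 5035 reads against 5817 in the library labelled knockout (log2 ratio 0.44). Gpam therefore made up 43.1% of the reads of the 4 enzymes of this step in wild type (42.1 to 44.1) and 25.7% in the other library (24.7 to 26.6). Gpat4 made up 49.6% (48.6 to 50.5) and 67.6% (66.6 to 68.6). Summed over the 4 genes per kilobase of exon, the step had 72.0 CPM per kb in wild type against 71.4 in the library labelled knockout. Its log2 ratio of -0.01 was 0.07 when libraries were scaled by total count, so no direction is given for the sum.

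Of the lysophosphatidate acyltransferases, Agpat2 and Agpat3 differed little. Agpat1 and Agpat5, which are outside the 10 genes, were lower in the library labelled knockout. Their ratios were 0.726 (0.599 to 0.878) and 0.801 (0.672 to 0.955). Agpat2, the isoform whose loss causes lipodystrophy, had 2883 reads in the wild-type liver, 127 CPM (123 to 132), against 2944 in the library labelled knockout, 153 CPM (147 to 158). It was 1.20-fold higher there (1.14 to 1.26), at percentile 85.1 of the ratios of genes with at least 300 reads. Agpat3, a family member that also acylates other lysophospholipids, had 8550 reads, 377 CPM (369 to 386), and 6690 reads, 347 CPM (339 to 355), a ratio of 0.919 (0.890 to 0.949). Relative to Agpat3, Agpat2 was 1.31-fold more abundant in reads in the library labelled knockout (1.23 to 1.39), a comparison that needs no scaling of the libraries. Agpat2 shares 64 exon bases, 3.0% of its exon length, with Egfl7 on the opposite strand, which had 385 and 452 reads. Whether the counting used strand is not known here, so reads in that overlap cannot be assigned.

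Lipins showed the widest difference among the 10 genes. Lpin1 had 5230 reads in the wild-type liver, 231 CPM (225 to 237), against 537 reads in the library labelled knockout, 27.8 CPM (25.5 to 30.3). Its level was 8.29-fold higher in wild type (7.58 to 9.08), a log2 ratio of -3.05, and 0.142% of genes with at least 300 reads had a lower ratio. Lpin2, the lipin that predominates in liver, was also lower, with 12746 reads, 563 CPM (553 to 573), in wild type against 5930 reads, 308 CPM (300 to 315). Its ratio was 0.547 (0.530 to 0.564), short of 2-fold. The third lipin, Lpin3, had 152 and 102 reads, a ratio of 0.788 whose interval (0.607 to 1.02) included equality.

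The makeup of the lipin reads differed accordingly. Lpin1 gave 28.9% of lipin reads in wild type (28.2 to 29.5) and 8.17% in the library labelled knockout (7.52 to 8.86), and Lpin2 70.3% (69.6 to 71.0) and 90.3% (89.5 to 91.0). The count of Lpin1 per count of Lpin2 was 0.410 in wild type against 0.0906 in the library labelled knockout, 4.53-fold apart (4.12 to 4.99) whatever the scaling. Both major lipins were lower together, so the summed level of the step was 71.7 CPM per kb in wild type against 29.5 in the other library, a log2 ratio of -1.28. Ctdnep1 and Cnep1r1, which form the phosphatase that activates lipins, had log2 ratios of 0.20 and -0.12, the latter with an interval of the ratio, 0.791 to 1.07, that included equality. Among the broad lipid phosphate phosphatases Plpp1 was at 0.41, Plpp2 at -0.35 and Plpp3 at 0.15.

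**Figure D1:**
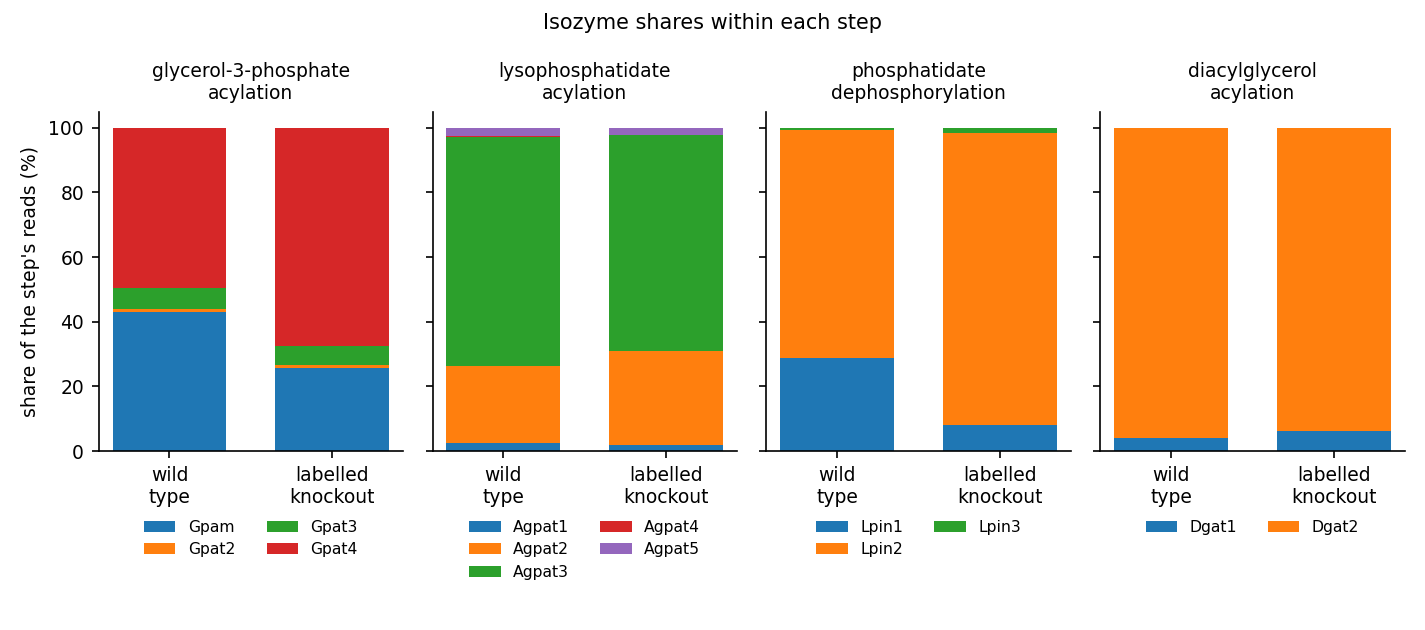
Share of each isozyme (%, vertical axis from 0 to 100) in the reads of its step, for the wild-type library and the library labelled Lrg1 knockout; 1 library each, and bars stacked to 100%. Gpam is 43.1% of its step on the left bar and 25.7% on the right, Lpin1 is 28.9% and 8.17% of lipin reads, and Dgat2 is 95.9% and 93.6% of its step. Shares are of reads, uncorrected for exon length. In wild type Agpat3 is 70.9% of its step's reads but 42.4% of its level per kb, and Agpat2 23.9% but 52.3%.

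Reads of the 2 Dgat genes came almost wholly from Dgat2 in both libraries. Dgat2, the acyltransferase linked to newly made fatty acids, had 13955 reads in the wild-type liver, 616 CPM (606 to 626), against 7262 in the library labelled knockout, 377 CPM (368 to 385), a ratio of 0.611 (0.594 to 0.629). Dgat1, an unrelated enzyme for the same reaction that favours preformed fatty acids, had 604 reads, 26.7 CPM (24.6 to 28.9), and 496 reads, 25.7 CPM (23.5 to 28.1). For Dgat1 the ratio of 0.965 had an interval from 0.855 to 1.09, so no difference was detectable at this depth, and its log2 ratio of -0.05 turned to 0.03 under total-count scaling. The Dgat1 share of Dgat reads was 4.15% (3.83 to 4.49) in wild type and 6.39% (5.86 to 6.96) in the library labelled knockout. The count ratio of Dgat1 to Dgat2 was thus 1.58-fold higher in the latter (1.39 to 1.79).

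The side route through monoacylglycerol was thinly expressed in wild type and lower still in the other library. Mogat1 had 348 reads in the wild-type liver, 15.4 CPM (13.8 to 17.1), against 85 reads in the library labelled knockout, 4.41 CPM (3.52 to 5.45). It was 3.49-fold higher in wild type (2.74 to 4.47), and the depth of 85 reads made this the widest interval of the 10 genes. Relative to Dgat2, a member of the same protein family, Mogat1 was 2.13-fold more abundant in wild type (1.67 to 2.74). Mogat2, the intestinal counterpart, had 10 reads against 1, too few to compare. The exons of Mogat1 share 200 bases, 12.8% of their length, with BC035947 on the opposite strand. Of its 50-base windows 9.95% occur in transcripts of another gene. Matches on either strand were counted, so this share can include that overlap and is not a separate limit. The Mogat1 value is therefore less certain than those of the lipins, for which the share was 0%.

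Lipolysis genes differed less than most synthesis genes. Pnpla2 had 2714 reads in the wild-type liver, 120 CPM (115 to 124), against 1720 in the library labelled knockout, 89.2 CPM (85.0 to 93.5), a ratio of 0.744 (0.700 to 0.791). Its activator Abhd5 had 867 reads, 38.3 CPM (35.8 to 40.9), and 664 reads, 34.4 CPM (31.9 to 37.2). For Abhd5 the ratio of 0.900 had an interval from 0.812 to 0.997, close to equality, and an antisense transcript annotated over 16.0% of its exons makes the value uncertain. G0s2, the inhibitor of Pnpla2, had 6112 and 6097 reads, a log2 ratio of 0.23. Per read of Pnpla2 there were 2.25 reads of G0s2 in wild type against 3.54 in the library labelled knockout, 1.57-fold apart (1.47 to 1.69), while Abhd5 per Pnpla2 was 1.21-fold higher (1.07 to 1.36). Reads of Gpam per read of Pnpla2 were 1.61 in wild type against 1.28 in the library labelled knockout, a ratio of 0.796 (0.734 to 0.862). Reads of all 4 enzymes of Gpam's step per read of Pnpla2, a ratio added after the values were seen, stood the other way: the 4 genes had 10158 reads in wild type against 8603 in the other library, and their ratio to Pnpla2 was 1.34-fold higher in the latter (1.25 to 1.43).

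**Figure D2:**
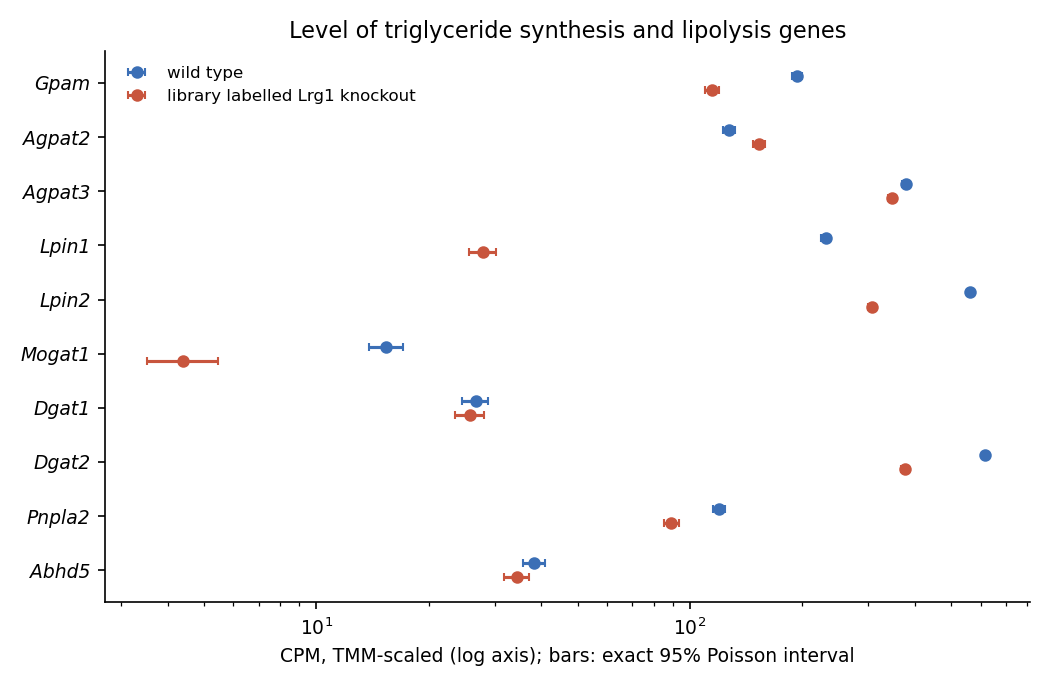
Level of each of the 10 genes in CPM (horizontal log axis) in the wild-type library (blue) and the library labelled Lrg1 knockout (red), 1 library each, with exact 95% Poisson intervals. Lpin1 (231 against 27.8 CPM) and Mogat1 (15.4 against 4.41 CPM) lie farthest apart, and the intervals of Dgat1 and Abhd5 overlap between libraries.

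**Figure D3:**
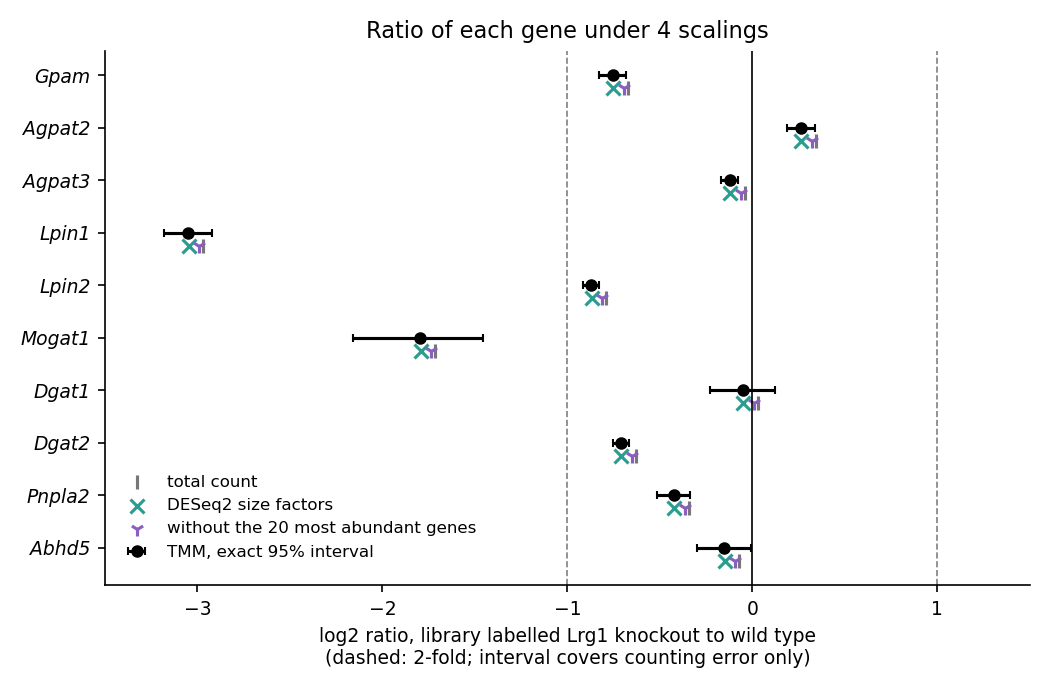
Log2 ratio of the library labelled Lrg1 knockout to wild type for each gene (horizontal axis, black points with exact 95% intervals for counting error) and the same ratio under 3 other scalings (coloured marks), with dashed lines at 2-fold. Only Lpin1 and Mogat1 lie beyond the lower line, and only Dgat1 has marks on both sides of 0.

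Per kilobase of exon the order of the genes was similar at the top in both libraries and differed at the bottom. In wild type Dgat2 led with 199.8 CPM per kb, followed by Agpat2 (59.8), Agpat3 (48.5), Lpin2 (46.0), Pnpla2 (39.7), Gpam (29.0) and Lpin1 (23.9). Mogat1 (9.86), Dgat1 (8.72) and Abhd5 (6.43) closed the order, and the intervals of Mogat1 and Dgat1 overlapped. In the library labelled knockout Dgat2 (122 CPM per kb), Agpat2 (71.7) and Agpat3 (44.5) still led, Pnpla2 (29.5) stood above Lpin2 (25.1), and Lpin1 stood at 2.88 CPM per kb, next to Mogat1 at 2.83 with an overlapping interval. Exon lengths are the union of annotated exons of each gene, from 1.56 kb for Mogat1 to 12.2 kb for Lpin2, and a transcript that uses only part of them has a higher level than shown.

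The rest of the glycerolipid pathway was spread around 0. Of 53 measured genes in 6 further lists of enzymes and their regulators, 22 had a lower and 31 a higher ratio in the library labelled knockout, 0 were 2-fold lower and 1 was 2-fold higher, with a median of 0.03. For 15 of the 53 the interval of the ratio included equality. Glycerol phosphate supply had 2 genes lower and 2 higher: Gk, the glycerol kinase listed as Gyk, was at 0.42 and Gpd1, which makes glycerol phosphate from a glycolytic intermediate, at -0.19, with Gpd1l at -0.34 and Gpd2 at 0.17. Of 9 other measured acyltransferases 5 were lower and 4 higher. Awat2, a wax synthase of skin, was at 0.94 on 23 and 38 reads and Tmem68, a triglyceride synthase of another family, at 0.67, while Agpat1 was at -0.46.

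Among 11 other measured lipases and lipolysis regulators 4 were lower and 7 higher. Lipe, hormone-sensitive lipase, was lowest at -0.95 with 733 and 322 reads, and Abhd6, a monoacylglycerol lipase, was at -0.50. On the other side stood Ces1d, a carboxylesterase that releases stored triglyceride for secretion, at 0.57, and Ddhd2 at 0.37. Pnpla3, a close relative of Pnpla2, had 5 and 11 reads and was not compared. In the phospholipid branch, which draws on the same phosphatidate and diacylglycerol, 7 genes were lower and 10 higher. Chka, the choline kinase that opens phosphatidylcholine synthesis, was the gene past 2-fold, with 1212 and 2214 reads (2.15-fold higher, with an interval that reached from just under 2-fold to 2.30). Etnk2, an ethanolamine kinase of liver, was at -0.69, and Selenoi, listed as Ept1 and adding the ethanolamine head group, at 0.57. Chkb was at 0.30 on 65 and 68 reads, with an interval of the ratio, 0.862 to 1.75, that included equality. Of 6 measured diacylglycerol kinases 1 was lower and 5 higher, from -0.13 for Dgkq to 0.30 for Dgkh, and the interval of each of the 6 included equality.

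Known transcriptional regulators of these genes had a median of -0.26, beside -0.01 over all measured genes. Of these 10 regulators 8 were lower, as were 51.7% of measured genes, and 1 was at least 2-fold lower, as were 2.50%. That gene was Ppargc1b, a coactivator of lipogenic and mitochondrial genes, with 180 and 61 reads (-1.32). Srebf1, the lipogenic transcription factor, was at -0.70 and Pparg, a nuclear receptor that drives Mogat1 in fatty liver, at -0.57. Foxo1, which insulin restrains, was at -0.37. Ppargc1a, the coactivator known to induce Lpin1 on fasting, was at 0.05 with a ratio interval from 0.858 to 1.25. Crtc2 was higher at 0.21, while Mlxipl (-0.14), Nr1h3 (-0.19), Ppara (-0.22) and Cebpa (-0.30) were lower. Any part of these regulators in the values of the 10 triglyceride genes was not tested.

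**Figure D4:**
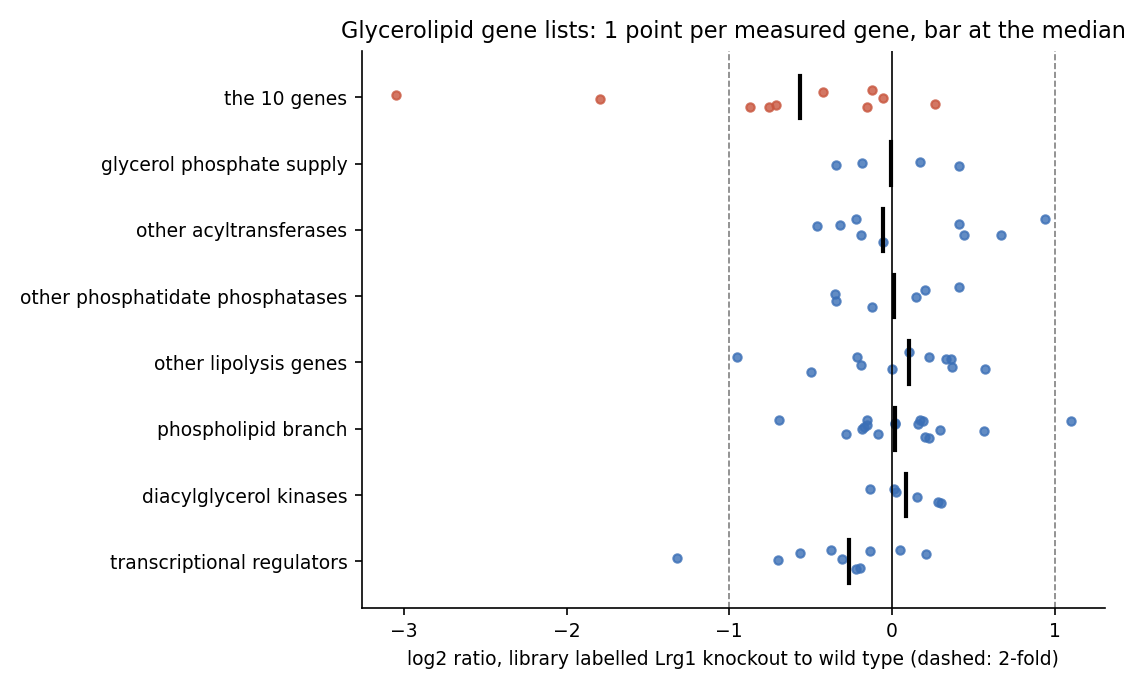
Log2 ratio of the library labelled Lrg1 knockout to wild type (horizontal axis) for each measured gene of the 10 (red) and of 7 further lists (blue), 1 point per gene with a black bar at each list's median and dashed lines at 2-fold; vertical scatter within a list carries no value. The 10 genes have a median of -0.57 and the 6 enzyme lists lie around 0, with Chka past the upper line.

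Genes whose ratio lay nearest to those of the lowest members were named by rule, likeness being the difference of log2 ratios over these 2 libraries. For Lpin1 these were Gstm3 (-3.05), Per3 (-3.08) and Egr1 (-3.09), a glutathione transferase from a family of close copies, a clock repressor and an immediate early factor. For Mogat1 they were Zbtb16 (-1.79), Sdf2l1 (-1.80) and Per1 (-1.81). Clock genes differed beside these values: of 15 fixed clock genes 10 were lower, as were 51.7% of measured genes, and 5 higher in the library labelled knockout. At least 2-fold lower were 7, against 2.50% of measured genes, and at least 2-fold higher were 2, against 1.70%. Their summed level was 889 CPM in wild type against 487 CPM in the other library. Abundant genes weigh most in that sum, and it does not show the genes that were higher. The 15 clock genes ran from Ciart at -5.29 to Npas2 at 2.21, with Dbp at -3.31, Per2 at -2.63 and Arntl at 1.49. The hour of collection is not given, and the part of clock phase in the Lpin1 and Mogat1 values was not tested.

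Fat tissue on the liver sample was looked for with 8 adipocyte markers, because most of the 10 genes are also high in adipocytes. Plin1, Lep and Retn had 0 reads in both libraries, and Adipoq had 1 and 4 reads, so the defining markers were at or near 0. Cfd, an adipocyte protease also made elsewhere, had 711 reads against 104 in the library labelled knockout (-2.54), and Fabp4 266 and 179. Without Pck1 and Car3, which hepatocytes express, the 6 remaining markers summed to 43.2 and 14.9 CPM. Most of that difference was Cfd, with 31.4 and 5.39 CPM. All 8 markers summed to 4424 CPM in wild type and 5217 CPM in the library labelled knockout, where Pck1 was higher (0.58) and Car3 lower (-0.25).

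**Figure D5:**
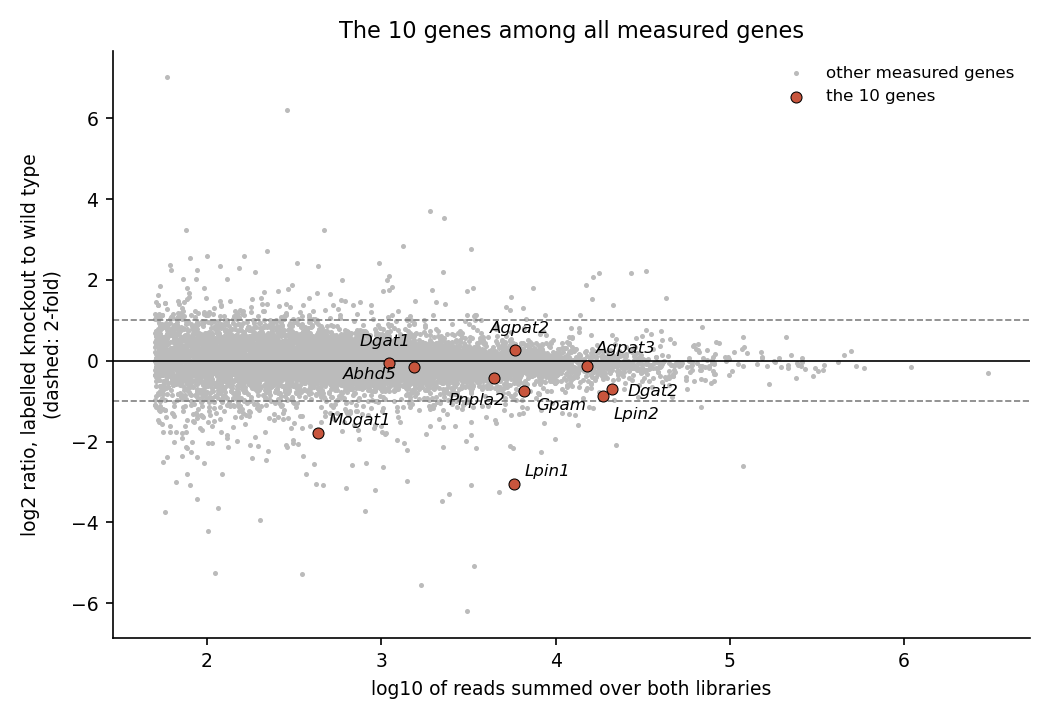
Log2 ratio of the library labelled Lrg1 knockout to wild type (vertical axis) against log10 of the reads summed over both libraries (horizontal axis) for all 11411 measured genes (grey) and the 10 genes (red), with dashed lines at 2-fold. Lpin1 at -3.05 and Mogat1 at -1.80 lie below the 2-fold line, and the other 8 lie within it.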

How the data were processed

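Liver RNA of 1 library labelled wild type and 1 labelled Lrg1 knockout was measured, made from about 500 ng of RNA with a stranded poly(A) kit and read as single ends of 50 bases, per the labels. The tables the authors deposited hold raw counts of reads for each symbol, and the submitters' processing notes name bcl2fastq, TopHat2, HTSeq and build mm9, with no versions, annotation or strand setting. Lines naming no gene did not enter the library sizes (reads outside genes, 14.0% and 14.4% of unique alignments).

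Counts were scaled by TMM (edgeR 4.0.16, R 4.3.3; factors 0.972 and 1.03). Log2 ratios used a prior count of 0.5, and a gene was measured from 50 summed reads (11411 genes). Ratios of isozyme count ratios have conditional exact intervals. Without molecular identifiers reads are not independent molecules, so intervals cover counting error only. Exon lengths, overlaps and 50-base windows come from GENCODE M21 (GRCm38), another build than that of the files.

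Members and lists were chosen with earlier results of these data known. Named were the 10 genes, the genes of 7 isozyme pairs, up to 4 genes farthest from 0 in each list, Lrg1, and the 3 genes of nearest ratio to each of the 10 that was 2-fold apart. Agpat5, Plpp3, Cnep1r1, Mogat2, Pnpla3, Ppargc1a, Alb, Npas2 and Arntl were added after their values were seen. So were Cebpa, Crtc2, Mlxipl, Nr1h3, Ppara, the overlapping genes and the adipocyte markers at or near 0. On a simulated pair with 11408 measured genes differing by counting alone, 100% of 50 genes set 2.5-fold higher and 96.0% of 50 set to 0.4 passed 2-fold, as did 9 of 11208 unchanged genes. Alternatives were 3 scalings, including DESeq2 1.42.0 size factors, thinning, a prior of 2, minimum sums of 1, 10 and 200, and thresholds of 1.5-fold and 3-fold. Other steps ran in Python 3.11.15 (scipy 1.17.1, numpy 2.4.6, matplotlib 3.10.9, pandas 2.3.3).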

Additional observations from a re-analysis of the deposited data

Results flagged for a closer look

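Lines for alignments that were not unique are outside the counts per gene and were listed because they hold a large signal that no comparison here draws on. They numbered 27554856 for the wild-type library and 30368128 for the library labelled Lrg1 knockout. Of these lines and the unique alignments together they made up 50.3% and 58.0%. Their genes of origin are not analysed here, and what this difference means for the ratios was not tested.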

How the results depend on the processing

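Of 50 ratios of the 10 genes under 5 alternatives of scaling, thinning and prior, 0 of those whose interval left out equality changed direction. Dgat1, whose interval includes it, ranged from -0.08 to 0.03, and Lpin1 from -3.05 to -2.97. With total-count scaling Agpat3 went from -0.12 to -0.04 and Abhd5 from -0.15 to -0.07. Intervals were not recomputed for the alternatives, so whether those of Agpat3 and Abhd5 would still leave out equality is not given. Lpin1 and Mogat1 were the 2 genes past 2-fold under each scaling, filter, thinning and prior tried, and also at 3-fold, while 5 were past 1.5-fold. The median of the 10 genes was -0.49 with total-count scaling, -0.51 when the 20 most abundant genes were left out of it, and the mean was -0.77. Total-count scaling moved the median of all measured genes by 0.08 (log2). Counts of measured genes past the threshold change with the filter and threshold because these decide which genes are counted. Lower genes numbered 1449 with no filter, 525 with 10 reads required, 166 with 200, 789 at 1.5-fold and 105 at 3-fold. Higher genes numbered 1243, 458, 100, 667 and 51 in the same order. Under total-count scaling, with all genes and then leaving out the 20 most abundant, Lpgat1 turned to 0.029 and 0.0058, Ttr to 0.053 and 0.030, and the median of the other acyltransferases, which is Lpgat1, to 0.029 and 0.0058, while its mean was 0.14. The summed lysophosphatidate step, 0.080 per kb, was -0.032 in reads without length; that and the other scalings of sums were chosen after seeing the data. For these the cause was not tested. No paired analysis was possible because there is 1 library per group, and for the same reason no library could be left out. Depth limits Mogat1 most, with 85 reads in 1 library.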
